A study of Mus musculus with 16 samples.

Results

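The 10 genes described here encode the IL1β ligand, its inhibitor, its receptors and the proteins that carry its signal: Il1b, Il1rn, Il1r1, Il1rap, Il1r2, Il1rl1, Myd88, Irak2, Irak3 and Casp1. They were taken by symbol from the 27998 genes of the count tables, and all 10 were present. IL1β acts through the receptor IL1R1, which recruits the co-receptor IL1RAP and, inside the cell, the adaptor MYD88 and kinases of the IRAK family, and so switches on NF-κB target genes. The pathway is held back at several steps: IL1RN occupies the receptor without signalling, IL1R2 binds the ligand but cannot signal, and IRAK3 lacks kinase activity and dampens the complex. In the marrow, IL1 is known as an alarm signal that drives stem and progenitor cells toward myeloid output.

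Lineage-negative (Lin-) bone marrow cells of C57BL/6 mice, labelled 6 to 12 weeks old, were measured by droplet single-cell RNA sequencing of transcript 3′ ends. WT mice carried Tet2fl/fl without Cre, and Tet2-KO mice (labelled Vav-Cre-Tet2-/-) lost Tet2 through Cre driven by Vav, a promoter active in blood cells. Because only Tet2-KO mice carried Cre, an effect of Cre and an effect of Tet2 loss cannot be told apart. For 5 weeks, mice of each genotype were given vehicle or a daily dose of 500 ng IL1β. Each of the 4 groups had 4 mice, and each of the 8 libraries pooled 2 mice of 1 group marked by hashtag antibodies.

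The libraries held 56010493 to 99197115 UMIs (unique molecular identifiers, 1 per captured RNA molecule) and a median of 4436 to 7363 UMIs per cell. Of 121405 barcodes, 94917 passed the filters, and 57896 were assigned to 1 mouse, with 698 (WT vehicle mouse 2) to 6432 cells per mouse. Pairs of libraries shared 0.128% to 0.512% of the barcodes of the smaller library. Tet2 itself, summed over all cells, read 32.8 to 46.6 CPM in the WT vehicle mice and 38.2 to 47.8 CPM in the KO vehicle mice (log2 difference 0.10 ± 0.11 SE, edgeR adjusted p = 1). It rose with IL1β by a log2 of 0.43 ± 0.11 in WT (adjusted p = 0.0116) and 0.59 ± 0.11 in KO (adjusted p = 0.00141), and the log2 difference of KO from WT with IL1β was 0.26 ± 0.11 (adjusted p = 0.53). CPM is counts per 1000000 UMIs, here scaled between mice by TMM. The deleted exon is not given in the sources used here, and 3′ tags outside it cannot check the genotype. Cells were assigned to 17 marker-gated classes, each named only for the markers that gated it ("-like"), except 7671 cells (13.2%) that met no gate and 1611 (2.78%) that met gates of more than 1 committed class. Those 1611 cells held 12.1% of Il1b, 14.2% of Il1rn and 16.1% of Il1r2 UMIs over all mice, so part of these genes' signal lies outside the 17 classes. A gate for immature myeloid progenitors had 4 MPP markers and 1 of its own among its 10 leading genes, so its cells are called Mpo+ Cd34+ cells.

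Which classes carried each gene in unperturbed marrow was read from WT mice given vehicle (mean CPM ± SD). These levels are a description with no test, since classes and levels come from the same cells. No member gated a class. Il1b, the ligand gene (chr2:129364570-129371139), was highest in megakaryocyte progenitor-like cells at 16.7 ± 15.2 (n = 4) and next in immature neutrophil-like cells at 8.93 ± 3.27, with overlapping ranges. Without mouse 2, which had the fewest cells, the megakaryocyte progenitor-like mean was 9.11. Il1b was at 0 in HSC-like cells of all 4 mice. Of the 118 Il1b UMIs of WT vehicle mice, 38 lay in megakaryocyte progenitor-like cells and 18 in immature neutrophil-like cells. In plasma cell-like cells, which are not known to make it, the 4 groups held 0 to 1 Il1b UMI each. Il1rn, which encodes the receptor antagonist (chr2:24336853-24351494), read 10.5 ± 8.46 in immature neutrophil-like cells, which held 19 of its 58 UMIs in WT vehicle mice. The mean of T and NK-like cells was as high, 12.1 ± 20.9 (n = 3), but came from 4 UMIs in 2 cells of 1 mouse.

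The signalling receptor and the decoy receptor were highest in different classes. Il1r1 (chr1:40225080-40317257) was highest in HSC-like cells at 33.5 ± 25.9, followed by CLP-like cells (common lymphoid progenitor markers) at 20.2 ± 17.1, eosinophil lineage-like cells at 17.1 ± 9.42 (n = 2, 3 UMIs), Mpo+ Cd34+ cells at 14.3 ± 3.37 and MPP-like cells at 12.0 ± 8.40 (n = 3). It was lower in granulocyte progenitor-like cells, at 1.68 ± 0.48, and in basophil-like cells, at 0.239 ± 0.478. The 4 HSC-like values were 18.2, 72.3, 21.2 and 22.3 CPM in mice 1 to 4. The mouse far above the others, mouse 2, gave only 20 HSC-like cells, and without it CLP-like cells ranked above HSC-like cells, as MPP-like cells did with stricter gates. The MPP-like gate itself was not made stricter, and as the last gate it could take cells that the other gates dropped. Il1r2 (chr1:40074079-40125231), the decoy, was highest in immature neutrophil-like cells at 22.9 ± 8.51, which held 43 of its 86 UMIs in WT vehicle mice. The 4 mice ranged from 13.8 to 34.2 CPM there, all above the highest mouse of the next class (12.2 CPM in CLP-like cells). Il1rap (chr16:26581704-26730117), the shared co-receptor, was detected in 16 of the 17 classes. Its mean was 27.3 ± 27.0 in T and NK-like cells, on 6 UMIs (n = 3), 25.1 ± 15.9 in basophil-like cells and 10.9 ± 4.92 in immature neutrophil-like cells, down to 2.55 ± 4.41 in class II dendritic cell-like cells (n = 3) and 0 in eosinophil lineage-like cells (n = 2).

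Il1rl1 encodes ST2, the receptor for IL33, a member of the IL1 cytokine family known for acting on basophils and mast cells. It lies in the same cluster of receptor genes as Il1r1 and Il1r2, at chr1:40429570-40465415 on the plus strand. Its level was 83.6 ± 21.0 in basophil-like cells, 63.9 ± 20.2 in erythroblast-like cells, 62.7 ± 23.4 in MEP-like cells (megakaryocyte-erythroid progenitor markers), 55.7 ± 5.13 in eosinophil lineage-like cells (n = 2) and 43.9 ± 6.48 in CFU-E-like cells (erythroid progenitors). The ranges of the first 4 of these overlapped from neighbour to neighbour, and those of the eosinophil lineage-like and CFU-E-like cells did not. MEP-like cells had only 2 of their 7 markers among their 50 leading genes, which also held Il1rl1. Their 10 leading genes held 1 basophil and mast cell marker. The content of basophil or mast cell progenitors in this class was not tested. T and NK-like cells read 38.4 ± 23.5 CPM, on 10 UMIs (n = 3). By contrast, megakaryocyte progenitor-like cells read 1.47 ± 2.94 CPM, granulocyte progenitor-like cells 1.4 CPM and monocyte-primed progenitor-like cells 0.455 CPM. Of the 1704 Il1rl1 UMIs of WT vehicle mice, 737 lay in CFU-E-like and 219 in basophil-like cells.

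GATA factors are the textbook regulators of the erythroid and the basophil and mast cell lineages, so the 250 bases before each annotated Il1rl1 start site were searched on both strands for GATA preceded by A or T and followed by A or G, 6 letters in all. They are printed 5′ to 3′ from RefSeq on GRCm38.p6, plus strand, with matches in capitals, the distal start at chr1:40429320-40429569 and the proximal at chr1:40439379-40439628.
Il1rl1 distal start: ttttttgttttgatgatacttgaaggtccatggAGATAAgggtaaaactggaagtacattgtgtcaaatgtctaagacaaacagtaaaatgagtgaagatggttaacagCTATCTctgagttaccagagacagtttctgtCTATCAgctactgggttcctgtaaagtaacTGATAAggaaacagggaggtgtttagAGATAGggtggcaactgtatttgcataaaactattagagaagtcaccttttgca
Il1rl1 proximal start: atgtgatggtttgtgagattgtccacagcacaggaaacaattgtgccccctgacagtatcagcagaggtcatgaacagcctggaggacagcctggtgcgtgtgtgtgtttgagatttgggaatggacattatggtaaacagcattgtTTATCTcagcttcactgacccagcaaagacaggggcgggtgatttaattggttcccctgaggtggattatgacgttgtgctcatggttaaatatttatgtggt
The distal window held 5 matches and the proximal 1. Of 32851 RefSeq promoters of the same length, 26.5% held at least 1 match and 0.0426% held 5 or more. The cut of 5 is the count of the distal window itself, so this share is a description and not a test. A match is a string of letters and was not tested as a binding site, and 3′ tags cannot tell which start was used. The 15 promoters of the 10 genes held 5 windows with a GATA match. None of the 15 held the NF-κB motif (GGGA, then 2 bases of any kind, then TTCC), which 1.21% of all promoters held; this says nothing about the factor.

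The remaining genes act inside the cell. Myd88 (chr9:119335934-119341411), the adaptor, read between 8.9 CPM (MEP-like) and 31.4 ± 21.0 (monocyte-like), and every pair of neighbours in its order overlapped. Irak2 (chr6:113638467-113695026), a kinase that sustains the signal, was highest in class II dendritic cell-like cells at 26.6 ± 11.0 (n = 3, 14 UMIs), but in erythroblast-like cells without mouse 3 or 4. Irak3 (chr10:120141648-120202130), the damper, was highest in eosinophil lineage-like cells at 131 ± 34.9 (n = 2) and basophil-like cells at 81.0 ± 18.7, and the basophil-like range of 60.9 to 104 CPM lay above that of immature neutrophil-like cells, at 37.6 ± 6.51. Casp1 (chr9:5298517-5307265), the protease that cuts pro-IL1β into its active form, was highest in monocyte-like cells at 57.5 ± 22.6 and lowest in CFU-E-like cells at 3.6 CPM.

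**Figure D1:**
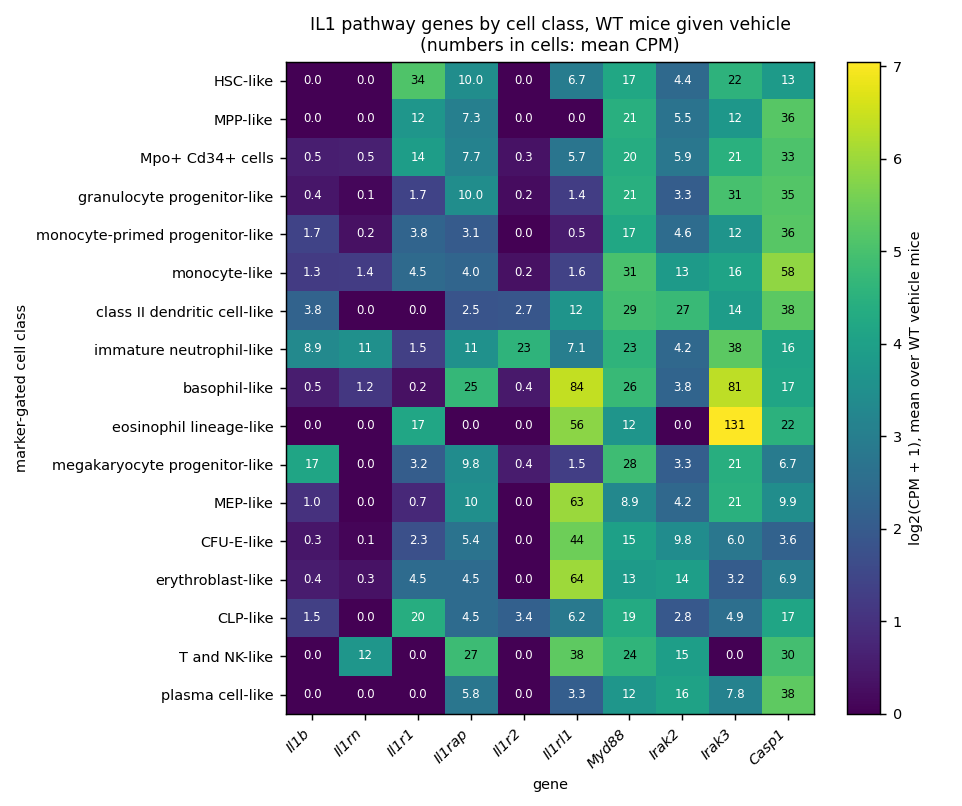
Mean level of each gene (columns) in each marker-gated class (rows) over WT vehicle mice; colour is log2(CPM + 1) and the printed numbers are mean CPM. Il1r2 stands out in immature neutrophil-like cells, Il1rn in those and in T and NK-like cells (4 UMIs of 1 mouse), Il1r1 in HSC-like and CLP-like cells, and Il1rl1 in basophil-like and erythroid classes.

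The next question was how 5 weeks of IL1β changed these genes in each genotype. UMIs were summed per mouse and class, and all genes were fitted together with the edgeR quasi-likelihood test. Of 170 pairs of a gene and a class, 56 passed the filter on low counts, in 11 classes. In WT mice 8 of the 56 pairs rose and 1 fell (16.1%), where of all gene and class pairs tested 9.95% were called, 4.05% higher and 5.90% lower. In Tet2-KO mice 7 rose and 1 fell (14.3%), against 12.0%, 5.17% higher and 6.82% lower. The median log2 difference over the 56 pairs was 0.34 in WT and 0.30 in KO, and over all pairs 0.024 and 0.019. Fitted over all cells, 2 of the 10 genes passed in each genotype, the co-receptor Il1rap and the damper Irak3, both upward, where 13.4% of all genes rose in WT and 15.8% in KO. In sums over cells, more cells of a class and more RNA per cell cannot be told apart.

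**Figure D2:**
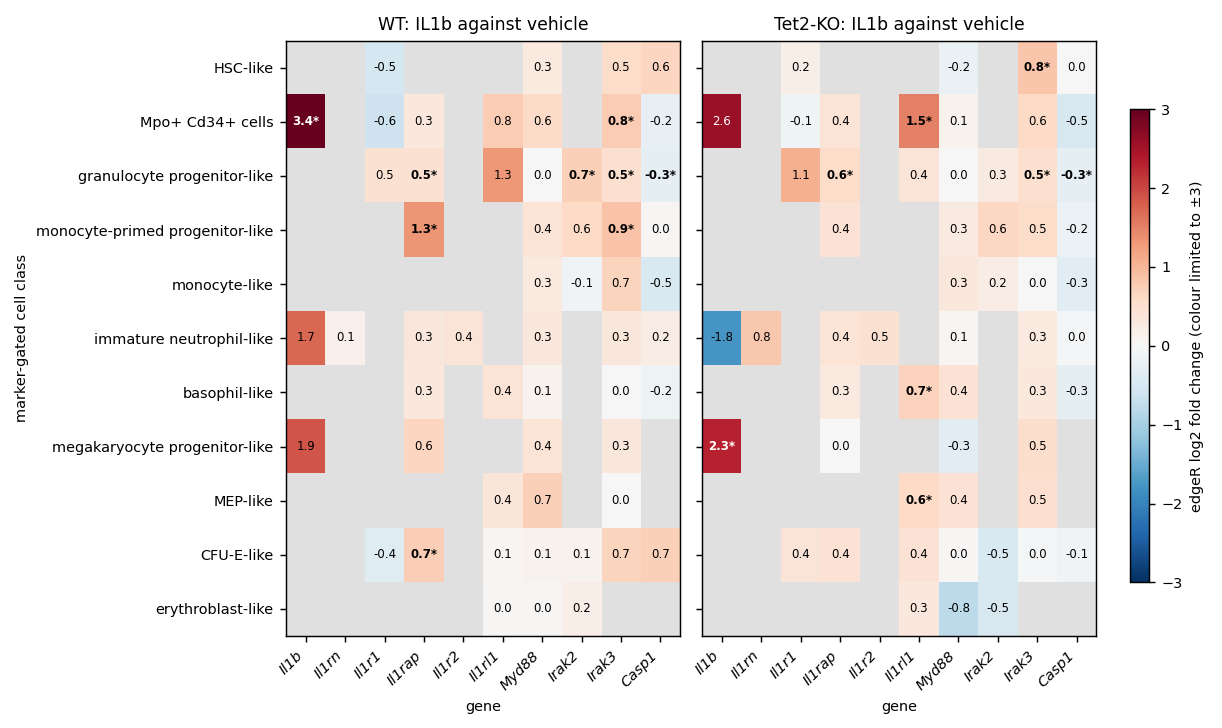
edgeR log2 fold change of IL1β over vehicle for each gene (columns) and class (rows), WT left and Tet2-KO right; bold with an asterisk marks an adjusted p under 0.05, grey marks pairs that failed the filter, and colour is limited to 3 log2 units. The granulocyte progenitor-like row holds 4 calls in WT and 3 in Tet2-KO.

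Irak3 rose in 3 classes of WT and 2 of KO mice. Its log2 difference was above 0 in all 10 classes tested in WT (lowest 0.0003) and in 8 of 10 in KO. These classes share mice and libraries, and the share of all genes above 0 in as many classes is not given here. In all cells Irak3 read 15.4, 19.6, 20.1 and 21.4 CPM in WT vehicle mice 1 to 4 and 33.5, 41.4, 30.5 and 30.6 CPM with IL1β. In KO mice it read 25.5, 26.9, 15.8 and 16.6 CPM with vehicle and 35.3, 31.7, 40.4 and 35.2 CPM with IL1β. In both genotypes every IL1β mouse lay above every vehicle mouse, with edgeR log2 differences of 0.83 ± 0.17 (SE, adjusted p = 0.00327) and 0.76 ± 0.17 (adjusted p = 0.00341). The fit took the 2 mice of a library as independent, although KO vehicle mice 1 and 2 lay above mice 3 and 4. For the all-cell calls of Irak3 and Il1rap, refits with pools as replicates or without 1 mouse are not given here. The shares of classes in the assigned cells were not tested: granulocyte progenitor-like cells were 18.5 ± 4.75% of WT vehicle cells and 26.4 ± 4.20% with IL1β, with overlapping ranges, and basophil-like cells 5.27 ± 1.42% and 9.61 ± 0.843%, without overlap. In KO mice both shares overlapped, at 15.3% to 43.5% with vehicle and 20.4% to 51.1% with IL1β for granulocyte progenitor-like cells and 2.86% to 6.38% and 2.95% to 15.5% for basophil-like cells. Shares of CLP-like and erythroblast-like cells, both low in Irak3, were lower with IL1β without overlap in both genotypes. For CLP-like cells they were 2.72% to 6.44% and 0.402% to 1.41% in WT, and 1.35% to 3.53% and 0.414% to 0.936% in KO. The part of these shares in the Irak3 rise was not tested.

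Within granulocyte progenitor-like cells Irak3 was 27.0, 36.1, 26.2 and 33.7 CPM in WT vehicle mice and 37.6, 46.6, 43.3 and 40.0 CPM in WT IL1β mice. The KO values were 30.9, 31.5, 23.3 and 23.7 CPM with vehicle and 35.4, 36.2, 40.4 and 41.8 CPM with IL1β. The groups did not overlap in either genotype, and the log2 rise was 0.48 ± 0.12 in WT (adjusted p = 0.00661) and 0.49 ± 0.11 in KO (adjusted p = 0.00202). Both calls held when any 1 mouse was left out, which does not leave out its library. The KO vehicle values lay by library, mice 1 and 2 above mice 3 and 4. With pools as replicates, and likewise with another hashtag rule, the calls in WT granulocyte progenitor-like cells (Irak3, Il1rap, Irak2, Casp1), Irak3 in WT Mpo+ Cd34+ cells, Il1rap in WT CFU-E-like cells, Casp1 in KO granulocyte progenitor-like cells and Il1rl1 in KO basophil-like and MEP-like cells were lost. In WT mice Irak3 also rose in monocyte-primed progenitor-like cells, from 12.6, 12.5, 8.76 and 12.3 CPM to 15.3, 31.2, 20.2 and 20.6 CPM (log2 0.85 ± 0.24, adjusted p = 0.02), a class where 5.81% of genes rose. It rose in WT Mpo+ Cd34+ cells from 19.7, 21.2, 22.5 and 21.2 CPM to 33.6, 46.7, 35.5 and 30.6 CPM (log2 0.77 ± 0.25, adjusted p = 0.0394), where 5.50% did. In KO mice it rose in HSC-like cells, from 33.8, 27.1, 14.9 and 30.5 CPM to 59.3, 43.7, 55.2 and 41.8 CPM (log2 0.84 ± 0.27, adjusted p = 0.0374), where 5.12% did. None of these 3 pairs overlapped between groups. They were named because they passed the fit on the same mice, so this is not separate support. The share of all genes without overlap in these classes is not given here. The monocyte-primed call was lost without WT IL1β mouse 2 or 3 or WT vehicle mouse 3, the Mpo+ Cd34+ call without any WT mouse but IL1β mouse 4, and the HSC-like call without any KO mouse but IL1β mouse 4 and vehicle mouse 1. DESeq2 made neither the HSC-like nor the Mpo+ Cd34+ call. Stricter gates lost the HSC-like and monocyte-primed calls. The HSC-like call was also lost without the cells highest in UMIs, and the Mpo+ Cd34+ call with no low-count filter. In the other genotype the log2 differences were 0.54 ± 0.23, 0.59 ± 0.26 and 0.54 ± 0.30, none past the threshold.

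Il1rap, which every IL1R1 and ST2 signal needs, rose in granulocyte progenitor-like cells of both genotypes. WT mice read 8.42, 10.2, 10.4 and 11.0 CPM with vehicle and 13.2, 12.7, 15.1 and 14.7 CPM with IL1β. KO mice read 11.4, 10.8, 8.52 and 6.89 CPM with vehicle and 14.8, 15.5, 13.3 and 12.96 CPM with IL1β. Each IL1β group lay wholly above its vehicle group, by a log2 of 0.46 ± 0.15 in WT (adjusted p = 0.0275) and 0.56 ± 0.13 in KO (adjusted p = 0.0024). The KO call held without any 1 mouse, and the WT call was lost without WT IL1β mouse 3 or WT vehicle mouse 1 or 3. The larger rise was in WT monocyte-primed progenitor-like cells, from 3.52, 0, 3.89 and 5.01 CPM to 9.23, 10.8, 13.1 and 6.44 CPM (log2 1.32 ± 0.39, adjusted p = 0.0248), again with no overlap. There too the call was lost without any of those 3 mice. In the KO mice of that class the difference was 0.44 ± 0.41 (adjusted p = 0.495), and the interaction was −0.88 ± 0.57 (adjusted p = 1). In WT CFU-E-like cells Il1rap went from 3.92, 8.65, 5.05 and 4.12 CPM to 7.15, 6.26, 8.99 and 6.97 CPM (log2 0.73 ± 0.24, adjusted p = 0.0395), where vehicle mouse 2 overlapped the IL1β mice and 8.34% of genes rose. DESeq2 did not make that call, and it was lost without WT IL1β mouse 1, 3 or 4, WT vehicle mouse 1 or 4 or KO IL1β mouse 4. It was also lost with stricter gates and with no low-count filter. The log2 difference of Il1rap was above 0 in all 7 classes tested in both genotypes, at 0.33 to 1.32 in WT and 0.019 to 0.56 in KO. In WT basophil-like cells the mean CPM was nonetheless lower with IL1β, 22.9 ± 5.65 against 25.1 ± 15.9. The classes share mice and libraries, and the share of all genes above 0 in as many classes is not given here.

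Irak2 rose in WT granulocyte progenitor-like cells, from 2.81, 3.38, 4.18 and 2.66 CPM to 5.15, 6.04, 4.62 and 6.43 CPM, without overlap (log2 0.71 ± 0.21, adjusted p = 0.0131). In KO mice the values were 5.29, 3.85, 5.25 and 5.47 CPM with vehicle and 5.97, 6.08, 6.74 and 5.40 CPM with IL1β, which overlapped (log2 0.28 ± 0.16, adjusted p = 0.175). The difference between these effects was −0.44 ± 0.26 (adjusted p = 0.988), and KO vehicle mice were above WT vehicle mice by 0.61 ± 0.21 without passing the adjustment (adjusted p = 0.492). The WT call was lost without WT vehicle mouse 4.

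Casp1 was the one gene of the 10 that fell, in granulocyte progenitor-like cells of both genotypes. WT mice read 37.3, 27.1, 37.4 and 37.5 CPM with vehicle and 27.4, 31.9, 30.2 and 28.6 CPM with IL1β (log2 −0.30 ± 0.11, adjusted p = 0.0432). KO mice read 36.2, 31.7, 44.3 and 41.3 CPM with vehicle and 31.9, 31.5, 32.7 and 31.4 CPM with IL1β (log2 −0.27 ± 0.10, adjusted p = 0.0326). The groups overlapped in both genotypes. Both calls were lost when library totals replaced TMM (log2 −0.11 in each), a scaling that moved the median of all genes in this class to 0.22 in WT and 0.17 in KO; here changes are relative to a median of 0.032 and 0.022. The WT call was lost without mouse 1, 3 or 4 of WT vehicle, WT IL1β or KO IL1β, and the KO call without KO IL1β mouse 1, 2 or 4 or KO vehicle mouse 3 or 4. Both Casp1 calls were also lost with no low-count filter and in fits of only the groups compared, and the WT call with the replicate block.

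In granulocyte progenitor-like cells 4 of 7 tested members were called in WT and 3 of 7 in KO, where 30.1% (13.5% higher, 16.6% lower) and 40.7% (19.7% higher, 21.1% lower) of all genes tested in that class were. The class's own markers moved there as well: 4 of 8 fell and 2 rose in each genotype, and their summed level was 14297 to 17262 CPM with IL1β and 20562 to 25129 CPM with vehicle in WT, and 15417 to 22457 against 22984 to 27435 CPM in KO. The part of this shift in the members' changes was not tested.

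**Figure D3:**
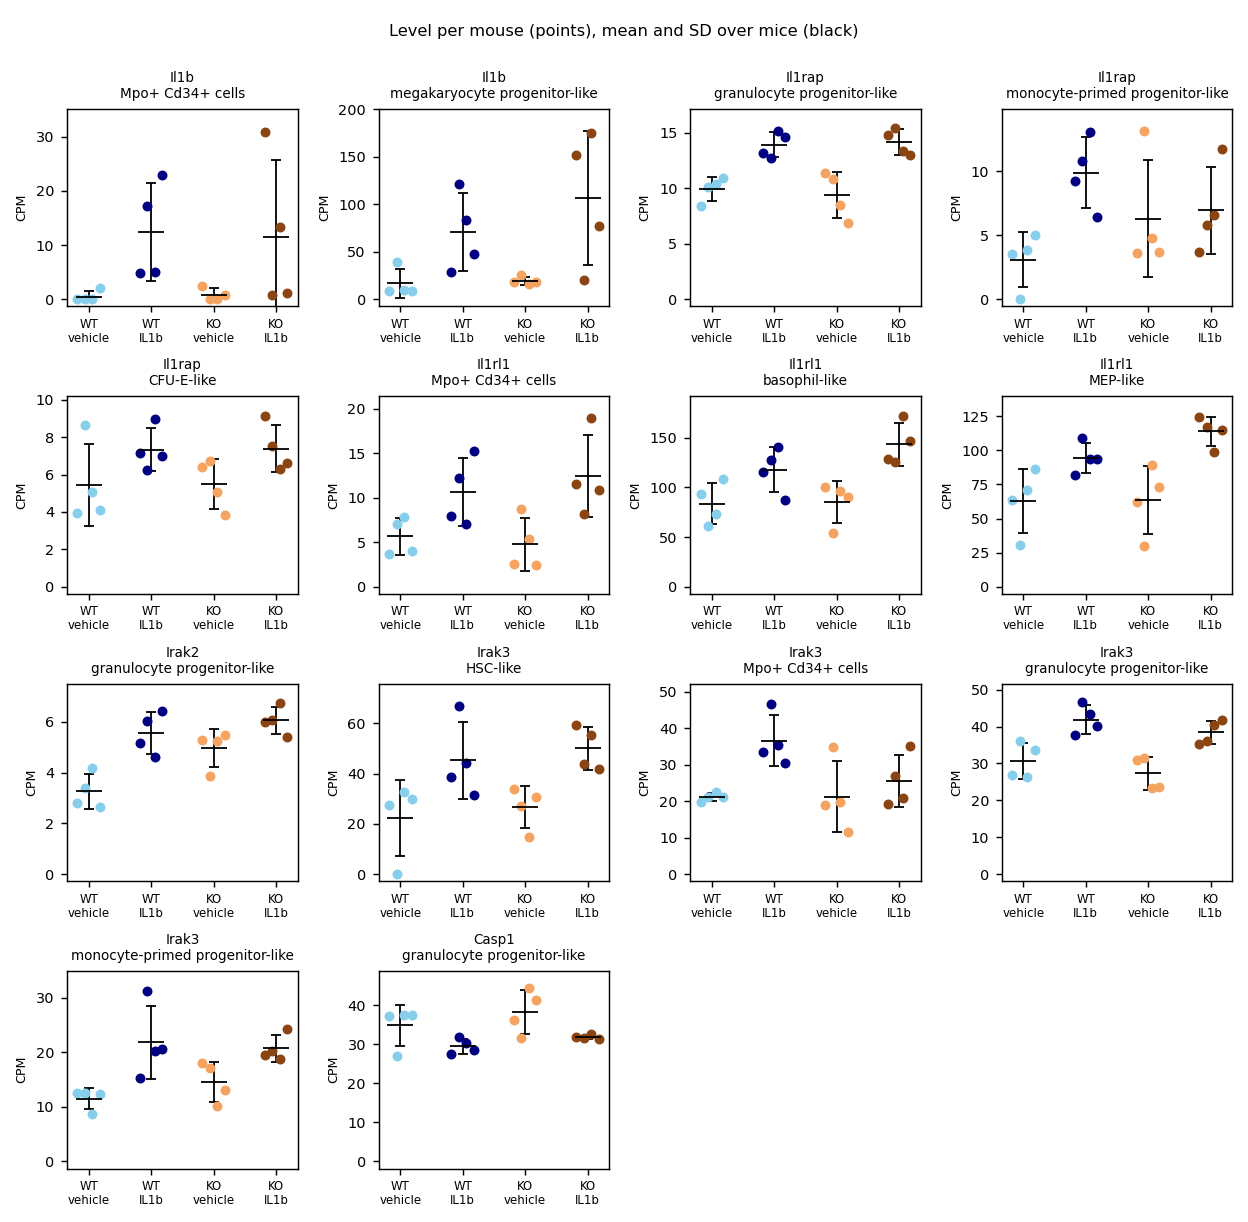
CPM of each gene in each class where it was called in WT or Tet2-KO; points are mice, black bars the mean and SD over 4 mice per group, and each axis has its own scale. Irak3 and Il1rap in granulocyte progenitor-like cells separate IL1β from vehicle in both genotypes, while Casp1 overlaps.

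Il1rl1 passed the test in 3 classes of KO mice and in none of WT mice. In basophil-like cells KO mice read 101, 54.1, 96.4 and 90.2 CPM with vehicle and 128, 126, 172 and 147 CPM with IL1β, with no overlap (log2 0.70 ± 0.17, adjusted p = 0.0159), where 2.15% of genes rose. WT mice read 92.9, 60.9, 72.8 and 108 CPM with vehicle and 115, 128, 141 and 87.3 CPM with IL1β (log2 0.40 ± 0.17, adjusted p = 0.184), where IL1β mouse 4 lay among the vehicle mice. The KO basophil-like call was lost without KO IL1β mouse 3 or KO vehicle mouse 3 or 4. In MEP-like cells the KO values were 62.2, 30.1, 89.0 and 72.8 CPM and then 124, 117, 98.9 and 115 CPM (log2 0.60 ± 0.18, adjusted p = 0.0435), also without overlap, where 1.49% of genes rose. WT MEP-like values were 63.6, 30.4, 70.8 and 85.9 CPM and then 81.9, 109, 93.7 and 93.3 CPM (log2 0.36 ± 0.18, adjusted p = 0.274). The KO MEP-like call was lost without any 1 of the 8 KO mice or WT IL1β mouse 2, and in DESeq2. It was also lost with no low-count filter, without the cells highest in UMIs and in the fit of only the groups compared. The part of basophil or mast cell progenitors in this rise was not tested. In KO Mpo+ Cd34+ cells Il1rl1 went from 2.52, 8.70, 5.39 and 2.47 CPM to 11.6, 8.22, 19.0 and 10.9 CPM (log2 1.51 ± 0.46, adjusted p = 0.0176), with an overlap at vehicle mouse 2. There 9.72% of genes rose, and the call was lost without KO IL1β mouse 3 or KO vehicle mouse 1 or 4. In that class 4 of the 7 tested basophil and mast cell markers rose too, to a summed 552 to 659 CPM from 231 to 409 CPM, and their part in the Il1rl1 rise was not tested. Il1rl1 in WT Mpo+ Cd34+ cells read 5.67 ± 2.11 CPM with vehicle and 10.7 ± 3.82 CPM with IL1β, with overlap (log2 0.76 ± 0.47, adjusted p = 0.308). The interaction for Il1rl1 was 0.29 ± 0.24, 0.24 ± 0.25 and 0.75 ± 0.68 in the 3 classes (adjusted p of 0.928, 0.941 and 1), so a difference between genotypes was not shown.

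Il1b itself, the mouse gene of the injected protein, rose in megakaryocyte progenitor-like cells of KO mice. Values were 18.1, 25.8, 16.1 and 18.6 CPM with vehicle and 152, 20.9, 175 and 77.5 CPM with IL1β (log2 2.31 ± 0.57, adjusted p = 0.0238), in a class where 2.84% of genes rose. Mice 1, 3 and 4 were high, mouse 2 lay within the vehicle range, and up to 18 UMIs came from 1 cell. WT mice read 8.74, 39.6, 9.79 and 8.82 CPM with vehicle and 29.0, 122, 83.7 and 47.4 CPM with IL1β (log2 1.90 ± 0.67, adjusted p = 0.0963), with an overlap at mouse 2 of the vehicle group. The KO call was lost without KO IL1β mouse 1 or 3 or KO vehicle mouse 3, and under another hashtag rule. Monocyte-primed progenitor markers read 258 to 1348 CPM in these KO cells with IL1β and 188 to 856 CPM with vehicle, and macrophage markers 0.634 to 32.7 and 1.13 to 3.31 CPM; their part was not tested.

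In WT Mpo+ Cd34+ cells Il1b went from 0, 0, 0 and 2.02 CPM to 4.80, 17.2, 5.07 and 22.9 CPM. This rests on 2 UMIs in 1 cell with vehicle and 24 UMIs in 17 cells with IL1β, a ratio of 12.8 with a 95% counting interval of 3.18 to 112 (edgeR log2 3.35 ± 1.11, adjusted p = 0.0437). The groups did not overlap, and the call was lost without any WT vehicle mouse, WT IL1β mouse 2, 3 or 4 or KO vehicle mouse 4. KO mice of that class read 2.52, 0, 0 and 0.823 CPM with vehicle and 30.8, 0.747, 13.3 and 1.21 CPM with IL1β (log2 2.58 ± 1.09, adjusted p = 0.0893). HSC-like cells failed the filter: Il1b was at 0 in all 8 vehicle mice, and read 6.65, 47.7, 4.02 and 20.9 CPM in WT and 14.8, 0, 21.7 and 11.8 CPM in KO mice with IL1β. Pooled over mice, the IL1β level in WT was 5.67 times the vehicle limit of 3 UMIs (14 UMIs in 11 cells, two-sided exact permutation p = 0.0286, the smallest 4 against 4 mice can give). In KO it was 5.58 times that limit (22 UMIs in 17 cells, exact permutation p = 0.143). These ratios leave out the counting error of the IL1β UMIs, and the permutation took the mice of a library as independent. Adjusted over all 386 such tests of pairs that failed the filter, the smallest p was 0.848.

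**Figure D4:**
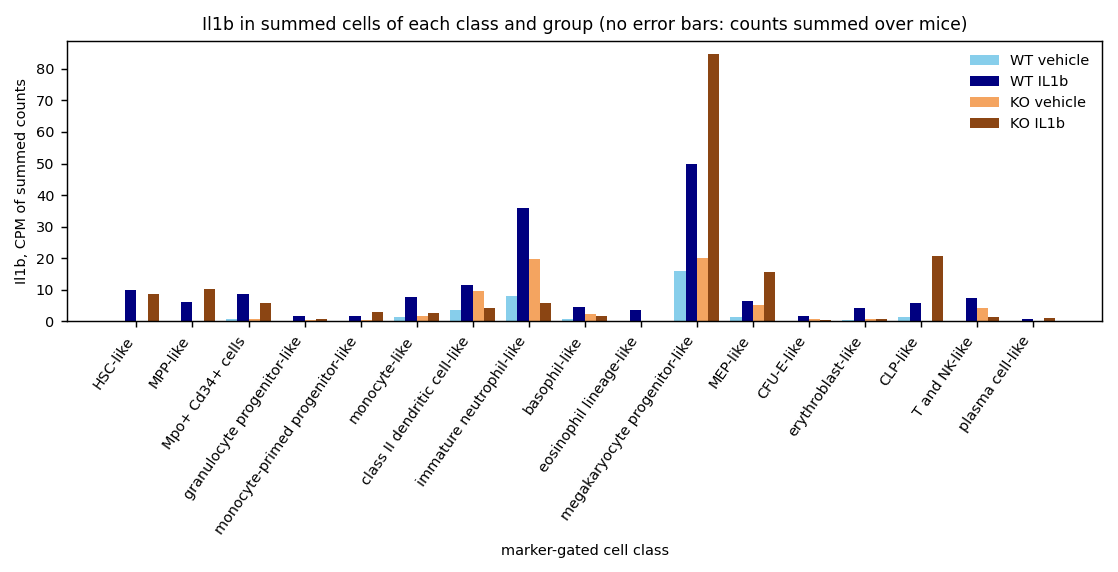
Il1b in each class and group as CPM of UMIs summed over mice, so the bars carry no error; the vertical axis starts at 0. Megakaryocyte progenitor-like cells are highest in every group, on 38 (vehicle) and 199 (IL1β) UMIs in WT and 79 and 293 UMIs in Tet2-KO. In Tet2-KO vehicle mice the order is close. The means over mice there were 19.6 ± 4.24 CPM, and 14.8 ± 8.50 CPM in immature neutrophil-like cells, with overlapping ranges. A summed bar weighs mice by their UMIs.

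In immature neutrophil-like cells the Il1b differences had opposite signs in the 2 genotypes. WT mice read 7.51, 12.4, 10.7 and 5.09 CPM with vehicle and 52.8, 21.8, 10.8 and 9.63 CPM with IL1β. KO mice read 26.7, 12.6, 6.53 and 13.4 CPM with vehicle and 0, 14.4, 0.661 and 3.02 CPM with IL1β. Neither change passed the threshold (log2 1.71 ± 0.64, adjusted p = 0.173, and −1.78 ± 0.64, adjusted p = 0.122), and nor did the interaction of −3.49 ± 0.91 (adjusted p = 0.952) or KO against WT with IL1β at −2.35 ± 0.53 (adjusted p = 0.165). Without KO IL1β mouse 2, at 14.4 CPM the highest of its group, those became −5.20 (adjusted p = 0.024) and −4.05 (adjusted p = 0.00344), and without WT IL1β mouse 2 the latter was −2.47 (adjusted p = 0.0487).

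The remaining genes did not pass the threshold in any class tested. Il1r1, tested in 4 classes, differed by −0.63 to 0.45 (log2) in WT and −0.14 to 1.08 in KO. In HSC-like cells it read 12.0, 47.7, 18.1 and 0 CPM in WT mice given IL1β (log2 −0.52 ± 0.46, adjusted p = 0.56) and 0, 12.5, 17.7 and 15.7 CPM in KO mice, against 14.3, 6.78, 9.94 and 14.2 CPM with vehicle (log2 0.18 ± 0.46, adjusted p = 0.859). Il1r2 in immature neutrophil-like cells read 13.8, 34.2, 23.2 and 20.3 CPM in WT vehicle and 26.6, 42.7, 23.1 and 6.42 CPM in WT IL1β mice (log2 0.38 ± 0.41, adjusted p = 0.714), and the KO difference was 0.46 ± 0.38 (adjusted p = 0.558). Il1rn there differed by 0.14 ± 0.58 in WT and 0.82 ± 0.54 in KO (adjusted p of 0.956 and 0.44). Myd88 was tested in 11 classes, with log2 differences of −0.010 to 0.73 in WT and −0.78 to 0.43 in KO, and in granulocyte progenitor-like cells it differed by −0.01 ± 0.16 and 0.01 ± 0.14.

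Tet2-KO and WT mice were compared on the same treatment. With vehicle, 0 of 56 pairs passed the edgeR threshold, 3 had an unadjusted p under 0.05, and the background was 0.0302% of all pairs. With IL1β, 0 of 57 pairs passed, 2 had an unadjusted p under 0.05, and the background was 0.224%. The interaction gave 0 of 56, 2 unadjusted, against 0.0164%. DESeq2 also called 0 in each, with 1 unadjusted each. Irak3 in granulocyte progenitor-like cells differed between genotypes by −0.12 ± 0.13 (log2) with vehicle and −0.12 ± 0.11 with IL1β, Il1rap by −0.07 ± 0.16 and 0.02 ± 0.13, and Casp1 by 0.08 ± 0.11 and 0.11 ± 0.10. Il1r2 in immature neutrophil-like cells differed by 0.18 ± 0.46 and 0.25 ± 0.32, and Il1rn there by −0.34 ± 0.68 and 0.34 ± 0.43. Myd88 differed by −0.36 to 0.32 with vehicle and −0.65 to 0.08 with IL1β over its 11 classes, and Il1rl1 by −0.43 to 0.36 and −0.56 to 0.32 over 6. Il1r1 in HSC-like cells was lower in KO vehicle mice by −0.92 ± 0.45 before adjustment (adjusted p = 0.939), with WT mouse 2 at 72.3 CPM as above.

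Other genes of the pathway were counted by the same fits, over pairs of a gene and a class. Of 20 known targets of IL1 and NF-κB signalling 19 were tested, in 201 pairs: 92 rose and 4 fell in WT (47.8% called), and 88 rose and 4 fell in KO (45.8%), where 9.95% and 12.0% of all pairs were called. Tnfaip3 and Nfkbia, both feedback inhibitors of NF-κB, rose by a log2 of 4.15 ± 0.35 and 3.60 ± 0.35 in WT CFU-E-like cells and 5.45 ± 0.54 and 3.92 ± 0.47 in KO Mpo+ Cd34+ cells (adjusted p from 1.52e-07 to 5.3e-06). Among 20 other adaptors and kinases, 21 of 198 pairs rose and 1 fell in WT (11.1%), and 27 rose and 2 fell in KO (14.6%), where 9.95% and 12.0% of all pairs were called. Of all pairs, 4.05% rose and 5.90% fell in WT, and 5.17% rose and 6.82% fell in KO. Map3k8, a kinase of the MAPK branch, rose by 2.60 ± 0.50 in KO HSC-like cells (adjusted p = 0.000922), and Tollip, an inhibitor of IRAK, by 0.51 ± 0.14 in WT granulocyte progenitor-like cells (adjusted p = 0.00983). Ube2n, a ubiquitin-conjugating enzyme that works with TRAF6, fell there by 0.48 (WT) and 0.45 (KO) on the log2 scale (adjusted p of 0.000388 and 0.000183).

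Of 10 other inflammasome genes 9 were tested, in 84 pairs. In WT 11 pairs of 3 genes rose and 6 pairs of 1 gene fell (20.2%, against 9.95% of all pairs), and in KO 15 pairs of 3 genes rose and 7 pairs of 2 genes fell (26.2%, against 12.0%). In granulocyte progenitor-like cells Casp4, the caspase that senses lipopolysaccharide, rose by 1.04 ± 0.19 in WT and 1.21 ± 0.16 in KO (adjusted p of 0.000493 and 1.96e-05), whereas Pycard, the adaptor that assembles CASP1, fell by 0.64 in WT (adjusted p = 0.000311). Of 6 other IL1 family receptors 4 were tested, in 23 pairs, of which 2 rose in WT (8.7%, against 9.95% of all pairs called) and 5 in KO (21.7%, against 12.0%), and none fell. Il18rap, the IL18 co-receptor, rose by 1.06 ± 0.20 in WT and 0.97 ± 0.16 in KO granulocyte progenitor-like cells (adjusted p of 0.000697 and 0.000134), and Il1rl2, the IL36 receptor, by 0.78 ± 0.24 and 1.10 ± 0.20 (adjusted p of 0.0187 and 0.000342). Of 9 other IL1 family ligands 2 were tested, in 3 pairs, of which 1 was called in WT (33.3%, against 9.95%) and 0 in KO (median log2 0.74): Il1f9 rose in WT granulocyte progenitor-like cells by 2.11 ± 0.58 (adjusted p = 0.00992). No pair of any of these lists passed between genotypes or in the interaction.

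Likeness of pattern was measured as Pearson's r of log2(CPM + 1) over the 17 classes in WT vehicle mice, among 10875 genes, a description across classes that share libraries. Il1r2 was most like Il1f9 (r = 0.955), Cldn1 (0.892) and Stfa1 (0.886). Il1rl1 was most like Mylk3 (0.889), Rec8 (0.831) and Ppm1a (0.827), and Il1b like Serpinb2 (0.872), Gm13431 (0.837) and R3hdm4 (0.804). Il1rn was most like Acpp (0.906), Nt5e (0.848) and Gm19705 (0.841), over class means that include the T and NK-like mean from 4 UMIs of 1 mouse. Il1r1 was most like Yeats2 (0.839), Coq5 (0.809) and Maoa (0.794).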

How the data were processed

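Lin- marrow RNA was captured with a droplet 3′ kit, and hashtag libraries were sequenced beside it. The authors aligned reads and counted UMIs with Cell Ranger (3.1.0) on mm10, and deposited unnormalized counts per gene and called barcode; the submitters' processing notes also name Seurat (3.2.3). Here, barcodes with at least 750 genes and at most 10% mitochondrial UMIs were kept. HTODemux (Seurat 5.3.0) assigned 57896 cells to 1 mouse, 3938 cells with both hashtags were removed as doublets, and 33083 without a call were left out; doublets within 1 mouse could not be seen. Cells were gated on markers into 17 classes, with gate thresholds set after seeing the data, and counts were summed per mouse and class with at least 10 cells. edgeR 4.0.16 (glmQLFit, glmQLFTest, TMM, filterByExpr with minimum count 10 and total 15) was fitted on all genes of a class with all 4 groups, with Benjamini-Hochberg adjustment over all genes and a threshold of 0.05. A class entered with at least 3 mice per group compared. Printed CPM were divided by TMM factors scaled to a mean of 1 within a class. Pairs that failed the filter got a two-sided exact permutation test. Limits of 3 counts and 95% intervals cover counting error only.

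DESeq2 1.42.0, other scalings, no low-count filter, a replicate block, pools as replicates, another hashtag rule (a ratio of 3), stricter gates, removal of the 5% of cells highest in UMIs, fits of only the groups compared and leaving out each mouse were tried. On simulated counts for WT HSC-like cells the edgeR step recovered 52.3% of genes changed by a log2 of 1 and 91.8% of those changed by 2, and for granulocyte progenitor-like cells 83.8% and 98.0%. Of its calls 8.18% and 4.81% were false for HSC-like cells and 4.60% and 7.14% for granulocyte progenitor-like cells, against a threshold of 5%. The simulated mice were independent, with edgeR's own spread and no library effect, and only WT IL1β mice were changed. The changed genes were drawn from all genes that passed the filter, so these shares need not hold for the 10 genes. All 10 genes are named in the IL1β comparisons, with values per mouse where called, and in those between genotypes; of each pathway list up to 4 genes per comparison, those with the smallest adjusted p in the classes with calls, could be named, and the 3 most alike genes for 5 members. The genes and lists were chosen with earlier results of these data known. Gene positions are from a GENCODE annotation of GRCm38, promoters from RefSeq on GRCm38.p6, where all 10 genes matched. Mice with the same number came from no shared animal or litter that the labels give, so the numbers were not taken as pairs. Over 7205 genes, deviations of same-numbered pools correlated at 0.557 in WT and 0.508 in KO between treatments. Between genotypes the correlations were −0.125 to 0.244. A pool effect shared by the treatments of 1 genotype was not modelled.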

Additional observations from a re-analysis of the deposited data

Results flagged for a closer look

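In groups of 4 mice, a mouse was marked when its gap to the nearest other was above Dixon's 95% critical value as a share of the group's range; 10 of 86 groups were marked, where chance alone marks about 1 in 20. Mouse 2 of a group was the marked animal in 8 of the 10. WT vehicle mouse 2 had the fewest assigned cells of all mice, 698, and gave 4 of them: Casp1 in granulocyte progenitor-like cells at 27.1 CPM, below 37.3 in the nearest mouse, Il1b in megakaryocyte progenitor-like cells at 39.6 CPM, above 9.79, Il1r1 in HSC-like cells at 72.3 CPM, above 22.3, and Irak3 in HSC-like cells at 0, below 27.3 CPM. In the WT vehicle group, Il1b in Mpo+ Cd34+ cells of mouse 4 was 2.02 CPM with the other mice at 0, and Irak3 in monocyte-primed progenitor-like cells of mouse 3 was 8.76 CPM, below 12.3. In WT mice given IL1β, Il1r1 in CLP-like cells of mouse 2 was 0, below 34.7 CPM. In KO vehicle mice, mouse 2 read 13.1 CPM of Il1rap in monocyte-primed progenitor-like cells, above 4.82, and 3.85 CPM of Irak2 in granulocyte progenitor-like cells, below 5.25. In KO mice given IL1β, mouse 2 read 25.6 CPM of Il1rn in immature neutrophil-like cells, above 8.87.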

How the results depend on the processing

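All 433 refitted log2 differences of called pairs kept their direction and 325 stayed past the threshold. The pairs were chosen because they had passed, so a kept direction is not separate support. The refits without 1 mouse included those without a mouse of the genotype not compared. Refits that gave no adjusted p were not counted. Of the WT vehicle levels, Il1b in megakaryocyte progenitor-like cells went from 16.7 to 9.11 CPM without mouse 2, and Il1r1 in HSC-like cells from 33.5 to 20.6 CPM without mouse 2 and to 12.6 CPM with stricter gates. Which class was highest, among classes with at least 3 mice and 10 UMIs (2 pools, or 2 mice when 1 was left out, which admits eosinophil lineage-like cells for Irak3), held for 9 of the 10 genes with stricter gates or pools and for 8 without any 1 WT vehicle mouse; Il1r1, Irak2, Irak3 and Myd88 were the genes whose highest class changed. The WT count of 9 calls became 14 with no filter on low counts, 4 with pools as replicates, 4 with the other hashtag rule, and 3 to 12 when 1 mouse was left out (3 without WT IL1β mouse 3 or WT vehicle mouse 1, 4 without WT vehicle mouse 3 or 4). The KO count of 8 became 14 with no filter, 10 with pools, 9 with the other hashtag rule and 4 to 11 when 1 mouse was left out (5 without KO IL1β mouse 1, 4 without KO IL1β mouse 3 or KO vehicle mouse 3 or 4). With pools and with the other hashtag rule, both counts mix the lost calls named above with gained pairs that are not named, so the set of calls changed. KO against WT with IL1β gave 2 calls with no filter (Il1b in immature neutrophil-like cells at log2 −2.36 and Il1rl1 in T and NK-like cells at −2.16), 1 with pools and 1 with the other hashtag rule (Il1b in MEP-like cells at 1.81 and 2.13), and 0 to 1 without 1 mouse. The interaction gave 1 with no filter and 0 to 1 without 1 mouse, both Il1b in immature neutrophil-like cells. KO against WT with vehicle stayed at 0 under every alternative. With the replicate block the counts were 9, 8, 0, 0 and 0, but same-numbered pools did not all deviate together (correlations of −0.125 to 0.557, the 2 highest, 0.557 and 0.508, between treatments of 1 genotype). The block was 1 term for both genotypes, so it cannot fit a pool effect that differs between them. The cause of the changes in the counts was not tested. Library totals in place of TMM, chosen after seeing the data, gave 9 and 11 calls. DESeq2 called 6 pairs in each genotype, with no adjusted p for 30 and 34 of the 56. A limit on many pairs is their few UMIs: 107 pairs failed the low-count filter and were tested only by permutation. Whether few cells, depth or low expression left them few was not tested.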

Other observations

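Several pairs had too few UMIs for the fit and are described with no call. Il1rap in HSC-like cells of KO mice read 3.47 ± 3.52 CPM with vehicle and 20.4 ± 8.09 CPM with IL1β (8 and 43 UMIs, n = 4), and in KO MEP-like cells 5.51 ± 4.47 and 17.7 ± 11.9 CPM. In WT mice it read 9.97 ± 7.504 and 6.68 ± 8.03 CPM in HSC-like cells (16 UMIs in each group) and 10.4 ± 4.07 and 11.1 ± 3.62 CPM in MEP-like cells. Il1rn in KO basophil-like cells was at 0 in all 4 vehicle mice and 2.53 ± 0.903 CPM with IL1β (18 UMIs in 17 cells, pooled 2.19 times the vehicle limit of 3 UMIs), and 1.19 ± 2.39 and 1.82 ± 0.701 CPM in WT mice. Each of these KO differences had an exact permutation p of 0.0286, the smallest possible, as had 11 of the 386 tests. At 0.0286 per test, chance alone gives at most about as many. It gives fewer where ties at 0 or groups of fewer than 4 mice put that p out of reach. How many of the 386 tests could reach it was not counted, and none had an adjusted p under 0.848.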
